A study of Mus musculus with 45 samples.

Results

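The 10 genes described here, Atm, Atr, Chek1, Chek2, Brca1, Trp63, Trp53, Mdm2, Bbc3 and Pmaip1, carry the response to DNA damage from its sensing to cell death. They were chosen by symbol, and all 10 were found among the 26214 genes of a table of transcript levels in mouse oocytes and embryos. RNA was measured in fully grown oocytes (FGOs), the last stage of oocyte growth before meiotic maturation, pooled as 5 FGOs per library, and in late two-cell embryos, with 1 embryo per library. The 21 libraries used were 3 control FGO, 3 K36M FGO, 7 control two-cell and 8 K36M oocyte-derived two-cell libraries. The libraries asked whether a mutant histone expressed in the growing oocyte altered the transcripts of the oocyte or of the embryo that forms from it.

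All mothers carried the H3f3b K36M-flox allele over a wild-type allele, on a hybrid C57BL/6 / 129 background. K36M mothers also carried Gdf9-Cre, a Cre gene under a promoter active only in oocytes, and control mothers lacked Cre. In K36M mothers the mutant H3.3, with methionine in place of lysine at residue 36, was therefore expressed in the oocyte alone. FGOs came from females of 3 to 4 weeks of age. The embryos were made by in vitro fertilization of oocytes of superovulated females with JF-1 sperm and were collected 31 to 32 h after fertilization. An embryo of a K36M mother may or may not have inherited the recombined allele, and the labels do not give its own genotype. An embryo that inherited it could also express the mutant itself, as the paper found for the protein in blastocysts. The labels do not say whether libraries of a group came from separate females, so the p-values measure the spread between these libraries, which may be partly technical.

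ATM and ATR are the kinases that sense damaged DNA: ATM answers to double-strand breaks and ATR to the single-stranded DNA of stalled replication forks. They pass the signal to the effector kinases CHK2 (Chek2) and CHK1 (Chek1), which stop the cell cycle. In the oocytes of the resting reserve, the p53 relative TAp63 (Trp63) is held ready as an inactive protein, is switched on by CHK2 after damage, and induces the death genes Bbc3 (PUMA) and Pmaip1 (NOXA). MDM2 marks p53 (Trp53) for destruction and is itself a p53 target. All values are TPM, in which each library sums to 1000000, so that a value is a share of the library's transcripts corrected for gene length. They are RNA levels, and say nothing of the activity of these kinases and factors, which is set largely on the protein.

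A few facts of the libraries bear on every result. The number of genes above 0 TPM was 16707 to 18559 in the FGO libraries and 10894 to 17329 in the two-cell libraries, and the reads behind a TPM value are not known. Spearman correlations within a group had medians per library of 0.936 to 0.948 for FGOs and 0.715 to 0.828 for embryos, so that single embryos varied far more than FGO pools. The 12 oocyte markers summed to 21154 to 21687 TPM in control FGOs, 18861 to 20150 TPM in K36M FGOs, 1335 to 4406 TPM in control embryos and 1425 to 4729 TPM in K36M oocyte-derived embryos. The 8 markers of the embryo's own transcription summed to 34.5 to 73.9 TPM in FGOs and 270.4 to 2440.0 TPM in embryos. The 12 granulosa markers summed to 432 to 560 TPM in FGOs, most of it from Serpine2 and Nr5a2, which are not particular to granulosa cells, and to 110 to 680 TPM in embryos. Amh and Foxl2, which define granulosa cells, reached at most 5.52 and 3.07 TPM in FGOs, and up to 26.3 and 104 TPM in single embryos. Cyp19a1, the aromatase gene of granulosa cells, was at 18.5 to 31.0 TPM in FGOs and at most 8.33 TPM in embryos, Inha at 5.08 to 15.03 TPM and at most 10.6 TPM, and Gja1 at 16.2 to 32.0 TPM and 1.14 to 197 TPM. The 9 stroma and theca markers stayed at or under 10.5 TPM in FGOs and 62.8 TPM in embryos, and the 6 blood markers at or under 0.380 TPM in FGOs and, in the highest embryo, 306 TPM. The part of other cells in the results was not tested. The targeted gene H3f3b averaged 293 ± 25 TPM in control and 398 ± 21 TPM in K36M FGOs (SD, n = 3 each). A point change in its coding sequence cannot be read from a TPM value, so this does not check the labels.

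In control FGOs the order of the levels was Chek1, Mdm2, Brca1, Trp63, Atr, Trp53, Atm, Chek2, Pmaip1 and Bbc3, and no neighbours in that order overlapped between libraries. K36M FGOs had the same order, with an overlap only between Atr and Trp53. In control embryos the order was Mdm2, Trp53, Pmaip1, Chek2, Chek1, Atm, Brca1, Bbc3, Atr and Trp63, and there Mdm2 alone stood clear of its neighbour, with every other pair of neighbours overlapping. In K36M oocyte-derived embryos the order was Mdm2, Chek1, Chek2, Trp53, Atm, Brca1, Pmaip1, Atr, Bbc3 and Trp63, and all pairs of neighbours overlapped.

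**Figure D1:**
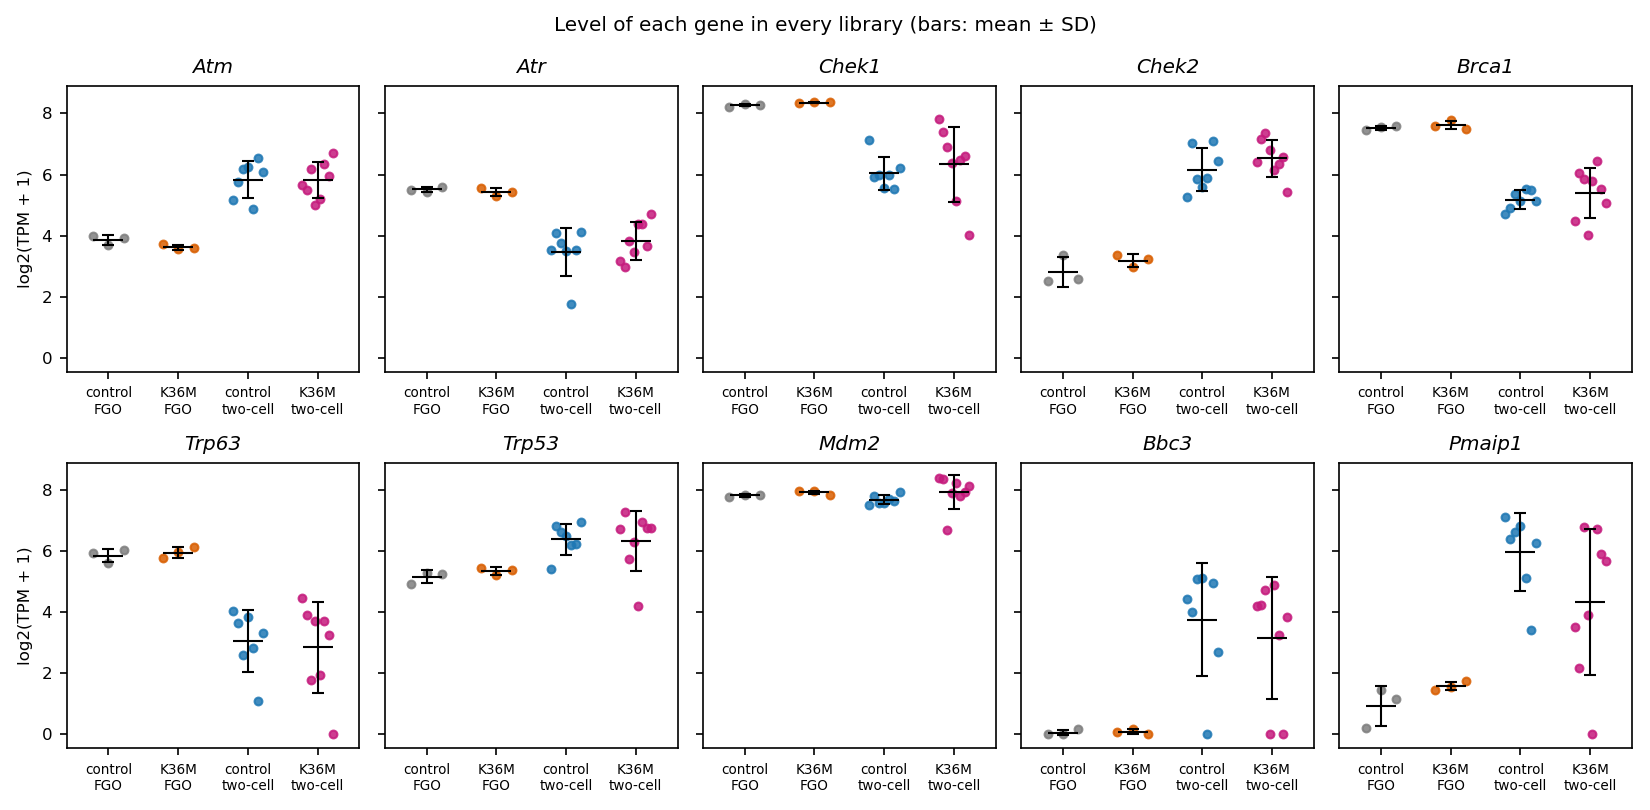
Each panel plots 1 gene, with log2(TPM + 1) on the vertical axis and the 4 groups on the horizontal axis. Points are libraries (3, 3, 7 and 8) and bars are the mean ± SD. Atr, Chek1, Brca1 and Trp63 lie higher in FGOs than in any embryo, Atm and Chek2 lie lower, and within a stage the control and K36M libraries overlap for all genes but Chek1 and Pmaip1 in FGOs.

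The main change in these genes was between stages, and it went in both directions. From control FGOs to control embryos Atm and Chek2, of the ATM branch, were higher. Atr and Chek1, of the ATR branch, were lower, as were Brca1 and Trp63, while Mdm2 stayed near its FGO level. The limma fit on log2(TPM + 1) over 21 libraries called 8 of the 10 genes at an adjusted p under 0.05, 4 higher and 4 lower. It gave each gene 1 spread for FGO pools and single embryos alike. Across all 17358 genes tested, 13.4% were called higher and 13.2% lower. Bbc3 was near 0 in FGOs and passed the filter on low values only through the embryos, so it had to differ; among the other 9 genes 7 were called. The FGO and two-cell libraries also differ in the number of cells pooled, in the second amplification (10 against 13 cycles of PCR), in the hormone treatment of the mothers and in the presence of a JF-1 genome, and these cannot be told apart from the stage. The labels give no age for the mothers of the embryos, so age may differ as well. Because TPM is a share, a fall in transcripts per cell and a rise of other transcripts cannot be told apart either.

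Atm (mm10 chr9:53437122-53536828, minus strand) was at 14.9, 11.8 and 14.1 TPM in the 3 control FGO libraries, and the 7 control embryos ran from 28.4 through a median of 67.2 to 91.5 TPM. Every embryo was above every FGO pool. The log2 fold change was 1.97 (SE 0.46, adjusted p = 0.00231), 3.93-fold. K36M FGOs held 12.1, 10.8 and 11.1 TPM and the 8 K36M oocyte-derived embryos 31.1 to 104 TPM with a median of 55.1, again with no overlap, and the log2 fold change was 2.201 (SE 0.45, adjusted p = 0.000633).

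Chek2 (mm10 chr5:110839800-110874140, plus strand), which encodes the kinase that ATM activates, was the lowest of the 4 kinases in FGOs, at 4.69, 9.37 and 4.91 TPM in controls. Control embryos ran from 37.4 through 57.8 to 135 TPM, and no embryo was as low as an FGO pool. The gene rose by 3.34 on the log2 scale (SE 0.48, adjusted p = 1.21e-05), 10.1-fold. In K36M FGOs it was at 9.32, 6.78 and 8.31 TPM and in K36M oocyte-derived embryos at 41.7 to 162 TPM with a median of 89.1. The log2 fold change there was 3.35 (SE 0.47, adjusted p = 7.76e-06).

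Chek1 (mm10 chr9:36708482-36726658, minus strand), the kinase gene downstream of ATR, was the highest of the 10 genes in FGOs, with 299, 316 and 312 TPM in the control libraries. The control embryos held 44.6 TPM at the lowest, 61.9 TPM at the median and 139 TPM at the highest. All embryos were below all FGO pools, and the gene fell by 2.23 on the log2 scale (SE 0.55, adjusted p = 0.00373), to 4.70-fold less. K36M FGOs held 321, 328 and 334 TPM, and K36M oocyte-derived embryos spread from 15.2 through 92.8 to 223 TPM. The gene fell by 2.02 on the log2 scale there (SE 0.54, adjusted p = 0.00615).

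Atr (mm10 chr9:95857597-95953217, plus strand) was at 43.9, 42.4 and 47.5 TPM in control FGOs, and at 2.39 to 16.2 TPM with a median of 10.5 in control embryos. No embryo reached an FGO pool, and the gene fell by 2.05 on the log2 scale (SE 0.56, adjusted p = 0.00816). In K36M libraries the FGOs held 46.5, 38.2 and 42.3 TPM and the embryos 6.81 to 25.2 TPM with a median of 12.5. There it fell by 1.60 on the log2 scale (SE 0.55, adjusted p = 0.0287), and with any 1 of the 3 K36M FGO libraries left out the difference stayed at -1.68 to -1.54 while its call was lost (adjusted p = 0.0819 to 0.115). Atr shares 286 bases with 1700065D16Rik on the opposite strand, and reads of the pair cannot be told apart where the counting ignored strand, which the sources do not say. The lncRNA gene Gm16794 covers 11173 bases of Atr on the same opposite strand, and a pseudogene, LOC115487301, lies within Atr over 178 bases. Neither has values here. The first neighbour was low, at a mean of 8.93 TPM in control FGOs and 2.64 TPM in control embryos.

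These genes of the 2 branches can be set against each other inside a library, which needs no scaling between libraries. These ratios were formed after the levels had been seen and are a description. Chek1 was 33.8 to 63.7 times Chek2 in control FGOs and 34.4 to 48.4 times in K36M FGOs, but 0.331 to 3.72 times in control embryos and 0.364 to 2.66 times in K36M oocyte-derived embryos. Atr was 2.95 to 3.60 times Atm in control FGOs and 3.55 to 3.85 times in K36M FGOs, against 0.0843 to 0.301 and 0.154 to 0.557 times in the embryos. Atr was thus above Atm in all 6 FGO libraries and below it in all 15 embryos.

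**Figure D2:**
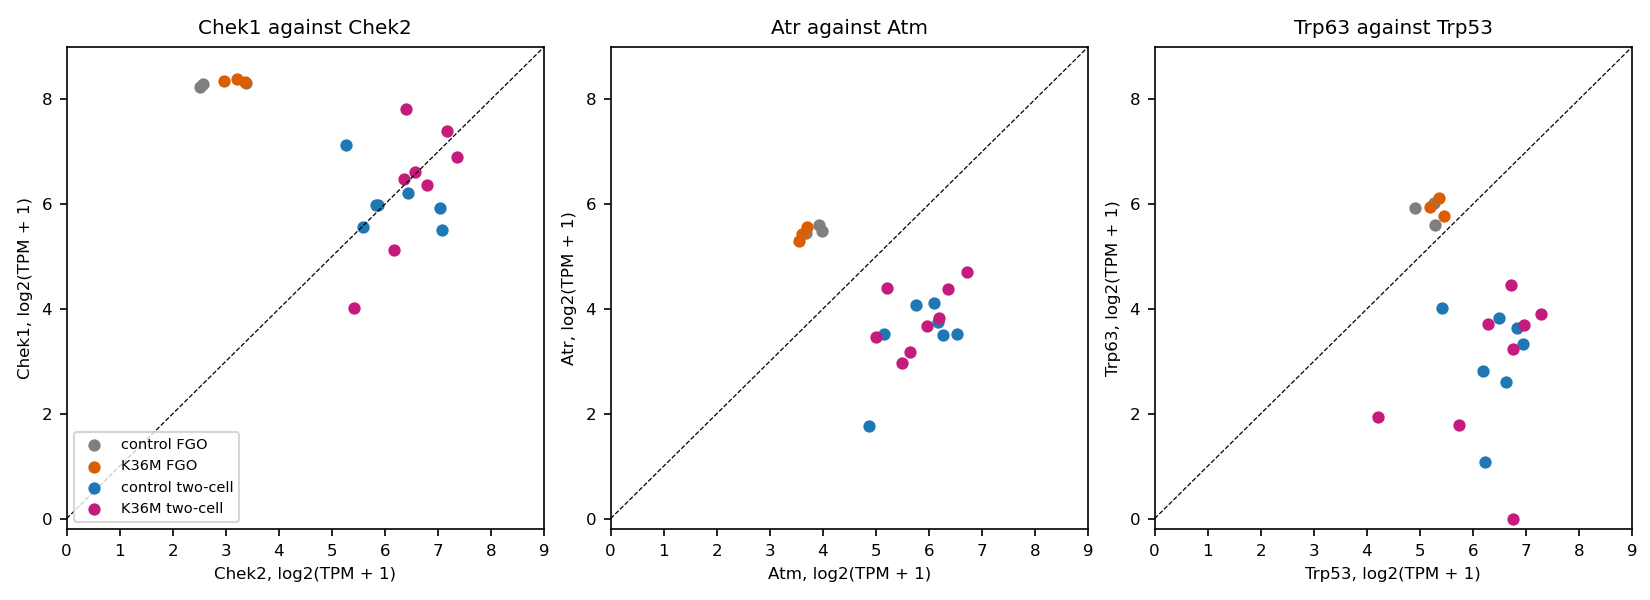
Each panel plots 2 genes of a pair against each other in the 21 libraries, both as log2(TPM + 1), with a dashed line where they are equal; colours give the 4 groups. FGO libraries lie above the line in all panels, embryos lie below it for Atr against Atm and for Trp63 against Trp53, and for Chek1 against Chek2 they lie on both sides of it.

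Brca1 (mm10 chr11:101488761-101551955, minus strand), which encodes a ubiquitin ligase that promotes repair by homologous recombination, lay in the same direction as Atr and Chek1. Control FGOs held 175, 188 and 189 TPM and control embryos 25.2 to 44.9 TPM with a median of 34.3. The groups did not overlap, and the gene fell by 2.35 on the log2 scale (SE 0.43, adjusted p = 0.000252). K36M FGOs held 192, 218 and 179.6 TPM and K36M oocyte-derived embryos 15.4 to 85.3 TPM with a median of 49.9, and the gene fell by 2.22 (SE 0.43, adjusted p = 0.000344).

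Trp63 (mm10 chr16:25683763-25892088, plus strand), the p53 family gene of the oocyte, was at 59.5, 47.8 and 63.8 TPM in control FGOs. Control embryos ran from 1.12 through 9.01 to 15.3 TPM. The gene fell by 2.81 on the log2 scale with no overlap (SE 0.80, adjusted p = 0.0114). The fall was about as large with a pseudocount of 0.1 (log2 difference -3.02) and without control FGO replicate 1 or 3 (-2.77 and -2.72), but was not called there (adjusted p = 0.0702, 0.0530 and 0.0569). In K36M FGOs Trp63 was at 53.5, 60.9 and 68.5 TPM, and in K36M oocyte-derived embryos it was listed at 0 in 1 and reached 21.01 TPM, with a median of 10.2. The gene fell by 3.10 on the log2 scale there (SE 0.78, adjusted p = 0.00416).

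Trp53 (mm10 chr11:69580348-69591873, plus strand) encodes p53 itself and lay in the other direction. Control FGOs held 29.2, 38.2 and 37.3 TPM, and control embryos 41.8 to 121 TPM with a median of 88.6. All 7 embryos were above all 3 pools, and 32.3% of all genes tested had no overlap in one direction or the other. The log2 fold change of 1.23 (SE 0.50) did not pass the threshold over all genes (adjusted p = 0.0691), but did without control two-cell replicate 1 (1.39, adjusted p = 0.0383). K36M FGOs held 42.7, 35.7 and 40.1 TPM, and the K36M oocyte-derived embryos 17.4 to 155 TPM with a median of 105. They overlapped the FGOs through replicate 5, the embryo at 17.4 TPM, and the log2 fold change was 1.00 (SE 0.49, adjusted p = 0.130). Without that embryo it was 1.305 (adjusted p = 0.0101). Within libraries, Trp63 was 1.25 to 2.04 times Trp53 in control FGOs and 1.25 to 1.71 times in K36M FGOs, and at most 0.366 and 0.202 times in control and K36M oocyte-derived embryos. A processed copy of the gene, Trp53-ps on chromosome 17, may share reads with it.

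Mdm2 (mm10 chr10:117688875-117710758, minus strand) was the one gene of the 10 that stayed among the top 2 in all 4 groups. It was at 217, 229.8 and 229 TPM in control FGOs and at 182 to 244 TPM with a median of 199.5 in control embryos, and the groups overlapped. The difference in log2 was -0.14 with a 95% confidence interval from -0.71 to 0.43 (adjusted p = 0.758). In K36M libraries the FGOs held 247, 247 and 229 TPM and the embryos 102 to 334 TPM with a median of 262, and the difference was 0.01 with an interval from -0.55 to 0.57 (adjusted p = 0.992). Mdm2 was 6.01 to 7.43 times Trp53 in control FGOs and 1.94 to 4.36 times in control embryos. In K36M FGOs it was 5.71 to 6.90 times Trp53, and in K36M oocyte-derived embryos 1.80 to 17.0 times with a median of 2.45, where the highest value, above every FGO library, is that of replicate 5.

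The death genes were the lowest of the 10 genes in FGOs. Pmaip1, which encodes the BH3-only protein NOXA (mm10 chr18:66458604-66465558, plus strand), was at 0.142, 1.74 and 1.22 TPM in control FGOs. Control embryos held 9.77 to 139 TPM with a median of 82.6, and every one was above the FGO pools. The gene rose by 5.04 on the log2 scale (SE 1.10, adjusted p = 0.00142). In K36M FGOs it was at 1.75, 1.90 and 2.34 TPM, and in K36M oocyte-derived embryos it was listed at 0 in 1 and reached 109.5 TPM, with a median of 32.1. There the log2 fold change was 2.75 (SE 1.08) and did not pass the threshold (adjusted p = 0.0582). It passed without embryo replicate 2 (adjusted p = 0.0339) and without replicate 5 (adjusted p = 0.00612). It also passed with quantile normalization, a mean TPM of at least 5 and array weights (adjusted p = 0.0180, 0.0490 and 0.000689).

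Bbc3, which encodes the BH3-only protein PUMA (mm10 chr7:16308398-16318334, plus strand), was listed at 0 in 2 of 3 control FGO libraries and at 0.114 TPM in the other. In K36M FGOs it was at 0.0442, 0.129 and 0 TPM. Control embryos ran from 0, in 1 embryo, through a median of 20.5 to 33.8 TPM, and K36M oocyte-derived embryos from 0, in 2 embryos, through 15.2 to 28.3 TPM. The embryos thus overlapped the FGOs only through those listed at 0, and most held Bbc3 at more than 5 TPM. Bbc3 passed the filter on low values only through the embryos, so the calls given here are no test of it. The log2 fold changes of 3.70 and 3.06 passed the threshold (adjusted p = 0.0163 and 0.0378). With FGOs at or near 0 the size of both is set largely by the pseudocount, and with 0.1 in place of 1 they were 6.17 and 4.995, both still called. Leaving out any 1 control FGO library left the first at 3.68 to 3.75 but not called (adjusted p = 0.0570 to 0.0630), and leaving out any 1 K36M FGO library left the second at 3.02 to 3.105, also not called (adjusted p = 0.103 to 0.114). The call of the second was also lost, at 2.81 to 2.96, without K36M oocyte-derived embryo replicate 1, 2, 3, 5 or 8 (adjusted p = 0.0524 to 0.0587) and with all genes above 0 tested (adjusted p = 0.0615).

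**Figure D3:**
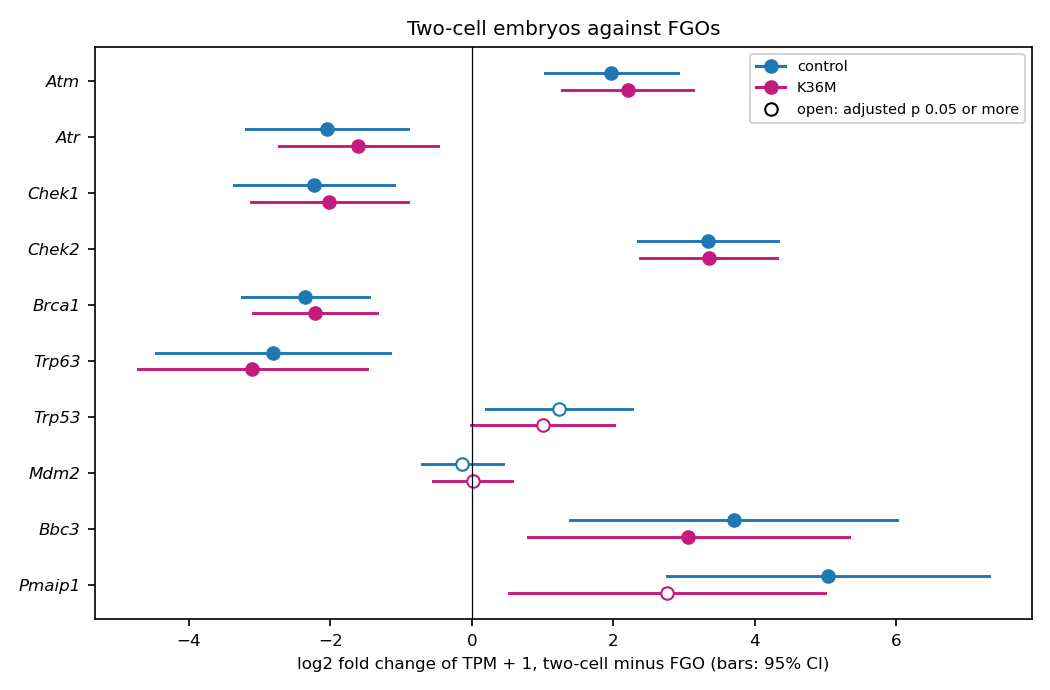
Log2 fold changes of TPM + 1 (two-cell minus FGO, horizontal axis) of the 10 genes, with 95% confidence intervals, for control (blue) and K36M libraries (magenta). Filled points have an adjusted p under 0.05. In both genotypes Atm and Chek2 lie to the right of 0, Atr, Chek1, Brca1 and Trp63 to the left, and Mdm2 at 0.

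In the K36M libraries 7 of the 10 genes were called between stages, 3 higher and 4 lower, and 6 of 9 without Bbc3. Of all 17358 genes tested, 10.8% were called higher and 18.6% lower there, with a median difference in log2 of -0.18. Whether the stage difference itself differed by genotype was tested by the interaction term. It was called for 0.0% of the 17358 genes (0 genes, with 199 at an unadjusted p under 0.05, and at most 13 called under another setting), and for none of the 10. The largest interaction was that of Pmaip1, -2.29 on the log2 scale with an interval from -5.47 to 0.90 (limma, adjusted p = 0.9999). The call of Pmaip1 in controls and its absence in K36M libraries are therefore not shown to differ.

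Within a stage, no member was called between K36M and control. In FGOs 9 of the 10 genes were tested, since Bbc3 was below the mean of 1 TPM, and the smallest adjusted p was 0.605. Of all 13775 genes tested, 0.00726% were called, which is 1 gene, and 300 genes were called without K36M FGO replicate 1, none of them a member. The intervals were narrow for the abundant genes: the log2 difference was 0.08 for Chek1 (interval -0.07 to 0.24), 0.10 for Mdm2 (-0.08 to 0.27), 0.09 for Brca1 (-0.12 to 0.31), 0.10 for Trp63 (-0.24 to 0.43) and 0.18 for Trp53 (-0.16 to 0.52). It was -0.24 for Atm (-0.68 to 0.20), -0.08 for Atr (-0.37 to 0.21) and 0.37 for Chek2 (-0.31 to 1.05). Chek1 and Pmaip1 were higher in all 3 K36M pools than in all 3 control pools, which 15.6% of genes tested showed in one direction or the other. For Pmaip1 the difference was 0.65 with an interval from -0.30 to 1.60, at levels of 2.34 TPM or less. It was 1.32 with a pseudocount of 0.1 and 0.28 to 0.91 with 1 library left out.

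In two-cell embryos all 10 genes were tested and none was called, nor was any of the 17362 genes (0.0%, with 1338 at an unadjusted p under 0.05, and at most 5 called under another setting). Embryos varied more than FGO pools, and the intervals were wide. They ran from -0.69 to 1.28 for Chek1, -0.41 to 1.16 for Chek2, -0.83 to 0.80 for Atm, -0.85 to 1.58 for Atr, -0.67 to 1.13 for Brca1, -1.79 to 1.38 for Trp63, -0.92 to 0.81 for Trp53 and -0.29 to 0.78 for Mdm2. The median gene was lower by 0.26 on the log2 scale in the K36M oocyte-derived embryos, and the directions of Atm, Trp63 and Trp53 flipped under another scaling. Bbc3 differed by -0.62 (interval -2.53 to 1.30), and by -1.24 to -0.17 with 1 library left out. Pmaip1 was furthest from 0, at -1.64 with an interval from -3.40 to 0.12 (limma, adjusted p = 0.658), and at -2.06 to -1.02 with 1 library left out. The K36M oocyte-derived embryos at 0 and 3.45 TPM lay below the lowest control at 9.77 TPM, and the highest, at 109.5 TPM, was inside the control range. The K36M oocyte-derived embryos also had fewer genes above 0 TPM (10894 to 14879, against 12115 to 17329 in controls) and lower median Spearman correlations with their own group (0.715 to 0.781, against 0.759 to 0.828), and the part of this in the lower values and the zeros was not tested.

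**Figure D4:**
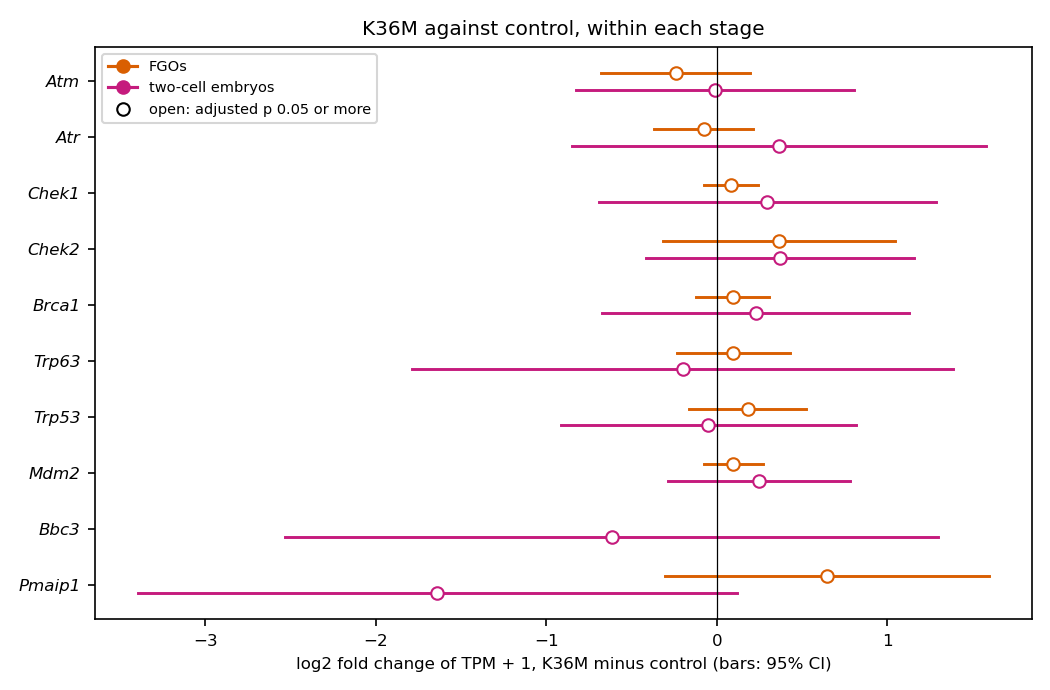
Log2 fold changes of TPM + 1 (K36M minus control, horizontal axis) of the 10 genes within FGOs (orange) and within two-cell embryos (magenta), with 95% confidence intervals; Bbc3 was not tested in FGOs. All points are open (adjusted p of 0.05 or more), and the intervals of the embryos are wider than those of the FGOs.

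Of the 10 genes, 5 start close to a gene on the other strand, so that 1 stretch of DNA lies between both starts. By RefSeq, on GRCm38.p6 (the assembly that mm10 names), the starts of Atm and Npat are 60 bases apart, those of Chek2 and Hscb 6, those of Brca1 and Nbr1 151, and those of Trp53 and Wrap53 97, and Atr overlaps 1700065D16Rik at its start. The stretches of 60 bases or more are printed from the genome, on the strand of the member, because the paired genes can be compared in these libraries; capitals mark CCAAT or GGGCGG on either strand (CCAAT reads ATTGG on the other), and TTTGGCGC and TTTCCCGC, the letters of E2F sites, were searched as well and not found in them.
Atm to Npat, chr9:53536829-53536888, minus strand: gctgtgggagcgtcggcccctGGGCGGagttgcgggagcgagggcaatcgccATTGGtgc
Brca1 to Nbr1, chr11:101551956-101552106, minus strand: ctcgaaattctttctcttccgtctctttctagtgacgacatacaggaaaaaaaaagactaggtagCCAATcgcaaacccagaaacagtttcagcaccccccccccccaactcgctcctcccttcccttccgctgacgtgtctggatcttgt
Trp53 to Wrap53, chr11:69580251-69580347, plus strand: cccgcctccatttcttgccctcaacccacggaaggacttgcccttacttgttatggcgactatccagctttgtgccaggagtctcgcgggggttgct
The Atm stretch holds both motifs, the Brca1 stretch CCAAT alone and the Trp53 stretch neither. Among 32851 RefSeq promoter windows of 300 bases, which are longer than these stretches, 37.4% held CCAAT and 35.7% GGGCGG, so that both are common letters and a match is a description.

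Atm and Npat, a gene needed for histone transcription, lay in the same direction. Npat rose by 2.11 on the log2 scale in controls (adjusted p = 0.00133), from a mean of 17.2 TPM to 78.9 TPM, and by 2.09 in K36M libraries (adjusted p = 0.00109), with no overlap in either. Wrap53, a gene needed for telomerase to reach Cajal bodies, was at a mean of 0.747 TPM in control FGOs and 38.4 TPM in control embryos. It passed the filter on low values there only through the embryos, so it had to differ. In K36M libraries it rose by 4.27 with no overlap (adjusted p = 0.00182), from a mean of 1.43 TPM to 55.9 TPM, beside a Trp53 that was higher but not called. 1700065D16Rik lay on the same side as Atr, with a log2 difference of -1.90 in both genotypes that was not called (adjusted p = 0.0956 and 0.0848). Chek2 and Hscb, which encodes an iron-sulfur cluster chaperone, lay in opposite directions: Hscb was at a mean of 73.4 TPM in control FGOs and 10.6 TPM in control embryos, a log2 difference of -3.31 (adjusted p = 0.0592), and fell by 3.41 in K36M libraries (adjusted p = 0.0440). Nbr1, an autophagy receptor gene, was at 117 and 130.03 TPM in control FGOs and embryos (log2 difference 0.12, adjusted p = 0.833), while Brca1 fell. Overlapping transcripts of such pairs cannot be separated without the strand.

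For each gene, the gene most alike in level was found by the root mean square difference of log2(TPM + 1) over the 21 libraries. The closest match was that of Mdm2 with Mia2 (0.34), followed by Brca1 with Cwf19l2 (0.44), Trp53 with Zfc3h1 (0.51), Chek2 with Nr2c2 (0.53) and Atm with Fyttd1 (0.54). Atr was nearest to Ube4a (0.61), Chek1 to Ippk (0.64), Trp63 to Celf2 (0.74), Pmaip1 to Apmap (1.01) and Bbc3 to Fblim1 (1.30). The distance grows with a gene's own spread between embryos, which was widest for Bbc3 and Pmaip1.

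The rest of the pathway was described with 163 genes in 7 lists, none of which holds a member. Of these, 155 were tested between stages, and in controls 39 were called higher and 25 lower, against the 13.4% and 13.2% of all genes. Of the 148 at a mean of at least 1 TPM in both stages, 35 were called higher and 25 lower, and the median turned from 0.08 to -0.01. That limit was not applied to all genes, here or below. Of the 12329 genes at a mean of at least 5 TPM over the libraries, 2339 were called higher and 1879 lower in controls. In K36M libraries 1948 of them were called higher and 2772 lower. The known p53 target genes had the largest share called higher in controls. Of 31 listed, 28 were tested, 15 were called higher and 1 lower, and the median log2 difference was 1.86, beside 0.00 over all genes. Of the 24 at a mean of at least 1 TPM in both stages, 12 were called higher and 1 lower, with a median of 1.58. Sesn2, which encodes a stress-induced inhibitor of mTORC1, rose by 6.00 (adjusted p = 5.15e-10), from a mean of 4.82 to 401 TPM. Gadd45b, a growth arrest gene of the same stress response, rose by 5.60 (adjusted p = 0.000154). Ercc5, a nuclease gene of nucleotide excision repair, fell by 2.79 (adjusted p = 0.0354). In K36M libraries 9 of 28 were called higher and 3 lower with a median of 0.72, beside 10.8% higher, 18.6% lower and a median of -0.18 over all genes. Of the 23 at a mean of at least 1 TPM in both stages there, 8 were called higher and 3 lower, with a median of 0.68. There Sfn, the gene of 14-3-3 sigma, rose by 5.15 (adjusted p = 1.10e-06), and Xpc, a damage recognition gene of excision repair, fell by 3.03 (adjusted p = 0.00895). These lists were chosen with results of these data known, and many of their genes answer to other signals than p53.

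The shares called in the other lists are read against those of all genes, 13.4% higher and 13.2% lower in controls and 10.8% and 18.6% in K36M libraries, and against the medians of all genes, 0.00 and -0.18. Of 13 end-joining genes tested, 4 (30.8%) were called lower and none higher in controls, and 4 and none in K36M libraries, with medians of -1.56 and -1.60. The other 9 passed in neither direction. In controls Xrcc5, which encodes the Ku80 end-binding subunit, fell by 3.35 (adjusted p = 0.000887), and Aplf, a scaffold gene of end joining, fell by 3.57 (adjusted p = 0.0133). In K36M libraries Lig4, the ligase of end joining, fell by 3.49 (adjusted p = 0.00238). Of 26 recombination genes tested with Brca1 partners, 3 were called higher (11.5%) and 5 lower (19.2%) in controls, near the shares of all genes. In K36M libraries 2 were called higher (7.69%) and 8 lower (30.8%), and the medians were -1.74 and -1.77. With median-of-ratios scaling the counts were 0 and 10 in controls and 1 and 11 in K36M libraries. Brca2, which acts in homologous recombination, rose by 0.70 (adjusted p = 0.0164) in controls, in the opposite direction to Brca1, and was not called with median-of-ratios scaling (0.38, adjusted p = 0.175). In K36M libraries Mus81, a nuclease gene for branched DNA, fell by 4.78 (adjusted p = 0.000566).

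Of the 25 sensor and mediator genes tested, 2 were called higher (8%) and 7 lower (28.0%) in either genotype, with medians of -0.18 and -0.15, the second close to the -0.18 of all genes. Hus1, a subunit of the 9-1-1 clamp that helps to activate ATR, fell by 3.58 in controls (adjusted p = 0.0172), and Rpa1, the large subunit of the single-strand binding protein upstream of ATR, fell by 3.43 (adjusted p = 0.000157). Rad9a, another subunit of that clamp, rose by 2.31 (adjusted p = 0.0418, and 0.0640 with median-of-ratios scaling), and H2ax, the histone phosphorylated at breaks, rose by 1.64 (adjusted p = 0.0134). Among 18 regulators of the p53 family, 7 were called higher (38.9%) and 1 lower in controls and 5 (27.8%) and 1 in K36M libraries, with medians of 0.71 and 0.25. With median-of-ratios scaling 4 were called higher in controls, with a median of 0.39. Trp53bp2, which encodes the p53-binding protein ASPP2, rose by 4.62 (adjusted p = 2.33e-06), and Ep300, an acetyltransferase and coactivator of p53, by 1.67 (adjusted p = 0.000441).

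Of 21 cell cycle genes on which the checkpoints act, 7 were called higher (33.3%) and 4 lower (19.0%) in controls, and 6 (28.6%) and 5 (23.8%) in K36M libraries, where the lower share is near that of all genes. Ccne1, the cyclin E1 gene, rose by 6.11 (adjusted p = 2.58e-13), and Cdc25c, a phosphatase that CHK1 and CHK2 inhibit, rose by 3.77 (adjusted p = 1.22e-06). Ccnb2, a mitotic cyclin gene, fell by 2.94 (adjusted p = 0.0439). Of 24 apoptosis genes tested, 5 were called higher (20.8%) and 3 lower (12.5%) in controls, and 3 (12.5%) and 4 (16.7%) in K36M libraries. Of the 21 at a mean of at least 1 TPM in both stages, 4 were called higher and 3 lower in controls. Bid, another BH3-only gene, rose by 3.80 (adjusted p = 0.00347), while Bcl2l10, an oocyte-rich survival gene, fell by 3.14 (adjusted p = 2.35e-05). The oocyte and embryo markers given above moved between the stages along with all 7 lists, and their part was not tested.

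**Figure D5:**
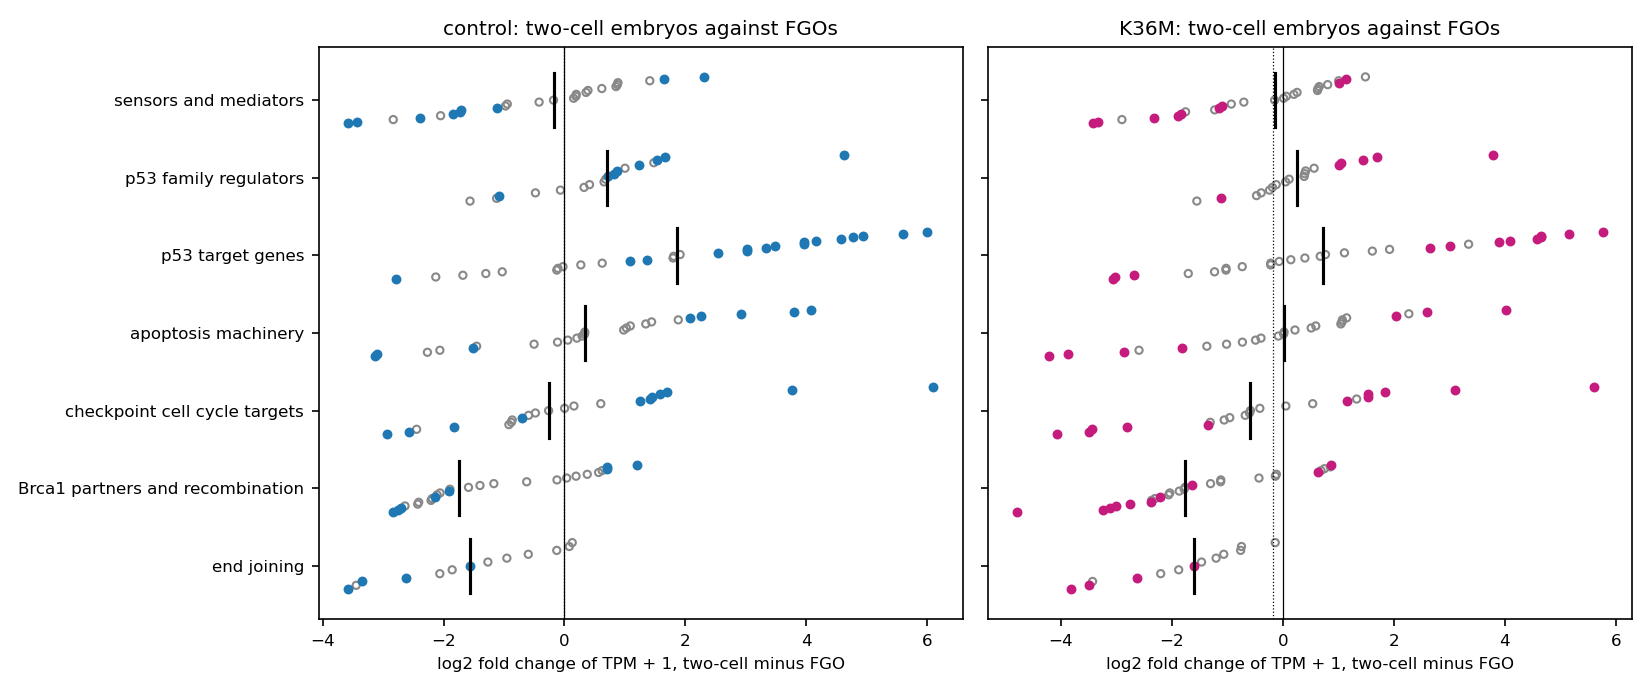
Log2 fold changes of TPM + 1 (two-cell minus FGO, horizontal axis) of the tested genes of 7 pathway lists (rows), in control (left) and K36M libraries (right). Filled points have an adjusted p under 0.05, short black bars are list medians, and the dotted line is the median of all genes; the p53 target genes have their median furthest right, and the end joining and recombination genes have their medians furthest left.

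Between K36M and control, none of the 163 listed genes was called in either stage. In FGOs 149 were tested and 17 had an unadjusted p under 0.05, beside 1446 of all 13775 genes tested. The list medians ran from -0.04 to 0.06, beside 0.01 over all genes. In embryos 154 were tested and 17 again had an unadjusted p under 0.05, beside 1338 of all 17362 genes tested. The list medians there ran from -0.81 for the p53 target genes to 0.15 for the sensors and mediators, beside -0.26 over all genes and beside the smaller number of genes above 0 TPM in the K36M oocyte-derived embryos. The median of the p53 target genes was -0.48 with quantile normalization and -0.70 with median-of-ratios scaling, and those of the recombination and end-joining genes turned above 0 with quantile normalization, as did that of the cell cycle genes with median-of-ratios scaling. Sesn1, a relative of Sesn2, had the smallest unadjusted p of the 27 p53 target genes tested in embryos (0.0243 in limma, adjusted p = 0.592), with a log2 difference of -2.04.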

How the data were processed

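RNA of 22 libraries was sequenced by the authors with a SMART-Seq stranded kit and 53-base paired reads. The authors trimmed the reads (Trim Galore!), aligned them to mm10 (Hisat2), dropped ribosomal reads (BEDTools), counted per gene (featureCounts), tested the counts (edgeR) and deposited TPM values, each library summing to 1000000. The annotation, gene lengths and strand setting behind them are not given in the sources used here. TPM keeps no depth, so no interval that needs counts is given and no count test was run.

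Log2(TPM + 1) was tested here by limma (version 3.58.1; R 4.3.3) with lmFit and trended eBayes. Genes below 1 TPM on average in the fitted libraries were left out, and p-values were adjusted by Benjamini-Hochberg over all others, with 0.05 as the threshold. K36M was compared with control apart in FGOs and in embryos, and 1 fit over 21 libraries gave both stage differences and the interaction. That fit gives each gene 1 spread for all 4 groups, though FGO pools varied less than single embryos. For Chek1 the SD of log2(TPM + 1) was 0.042 in control FGOs and 0.54 in control embryos. The errors and p-values of the stage differences rest on that shared spread. A further control embryo, replicate 4, was dropped in the study because of a technical fault and served only as an alternative. The fits were tested on simulated data. Python 3.11.15, numpy 2.4.6, pandas 2.3.3 and scipy 1.17.1 were used elsewhere.

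From each list and comparison, up to 2 genes called higher and 2 called lower, with no overlap between groups, could be named, ranked by fold change, or else the 2 with the smallest unadjusted p. Members and lists were chosen with earlier results of these data known. Sequences and positions came from RefSeq on GRCm38.p6, in which 99.82% of symbols were found. The alternatives changed the pseudocount (0.1), the filter (every gene above 0, or a mean of 5 TPM), the scaling (quantile, or median of ratios), the variance model (no trend, or array weights), the design (the replicate number as a block, or only the 2 groups compared) and the libraries (replicate 4 added, or each library left out, which for embryos was added after the data were seen).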

Additional observations from a re-analysis of the deposited data

Results flagged for a closer look

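Among the embryos, 2 values stood apart from their own group by Dixon's test on log2(TPM + 1), with 20 groups tested (10 genes in control and K36M oocyte-derived embryos), of which chance flags about 1 in 20. Atr was at 2.39 TPM in control two-cell replicate 6, below the other 6 control embryos. Mdm2 was at 102 TPM in K36M two-cell replicate 3, below the other 7 embryos of its group. That embryo also had the highest sums of blood markers (306 TPM) and of stroma and theca markers (62.8 TPM). The part of other cells in its value was not tested.

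Control two-cell replicate 4, which was left out of the comparisons, held 3 genes above the range of the other 7 control embryos. Trp63 was at 47.0 TPM against at most 15.3 TPM, close to the lowest control FGO library at 47.8 TPM. Chek1 was at 211 TPM against at most 139 TPM, and Atr at 28.3 TPM against at most 16.2 TPM. Pmaip1 was listed at 0 there, below the lowest of the others at 9.77 TPM, and the remaining 6 genes lay inside the range of the others. Its oocyte markers summed to 7273 TPM, against at most 4406 TPM in the others, and its 8 markers of the embryo's own transcription to 268.6 TPM, against at least 368.5 TPM. Its blood markers summed to 129 TPM and its stroma and theca markers to 54.6 TPM, against at most 25.5 and 35.7 TPM. Its granulosa markers summed to 108 TPM, against at least 243 TPM. Its median Spearman correlation with its own group, 0.699, was the lowest of the 22 libraries. The part of these in its values was not tested.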

How the results depend on the processing

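No member was called between K36M and control in FGOs or embryos, or in the interaction, under any of the alternatives or with any library left out. Between stages and with Bbc3 counted, 8 members were called in controls and 7 to 9 under the alternatives (6 to 9 with 1 library left out). In K36M libraries 7 were called, with 5 to 9 under the alternatives (5 to 8 with 1 library left out). Atm, Chek2 and Brca1 were called in both genotypes under all of them. The cause of the changes below was not tested.

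In K36M against control embryos, quantile normalization turned the log2 difference of Atm to 0.13, of Trp63 to 0.15 and of Trp53 to 0.027, median-of-ratios scaling turned Atm to 0.092 and Trp53 to 0.054, and the replicate block turned Atm to 0.10. Leaving out 1 library gave -0.17 to 0.10 for Atm, -0.53 to 0.21 for Trp63 and -0.21 to 0.25 for Trp53, and in FGOs -0.023 to 0.19 for Trp63. The stage difference of Mdm2 in K36M libraries turned to -0.14 with quantile normalization, -0.16 with median-of-ratios scaling, -0.052 with array weights and -0.066 with the replicate block, and ran from -0.055 to 0.19 with 1 library left out. The interaction of Chek2 turned to -0.044 with a pseudocount of 0.1, -0.0086 with quantile normalization and -0.034 with the replicate block, and that of Trp63 to 0.061 with quantile normalization. With 1 library left out they ran from -0.27 to 0.16 for Chek2, -0.011 to 0.33 for Brca1, -0.63 to 0.11 for Trp63 and -0.39 to 0.074 for Trp53. None of these values was called.

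Same-numbered libraries did not deviate together (correlations of -0.103 to 0.0976), so the numbers were not taken as pairs. With the number as a block, the stage calls of Trp63 in controls (-2.28, adjusted p = 0.0725) and of Atr and Chek1 in K36M libraries (-1.67 and -1.36, adjusted p = 0.0663 and 0.0678) were lost, and the calls over all genes went from 4615 to 3887 and from 5094 to 4199. In a fit of only the 2 groups compared, Trp53 was called in controls (adjusted p = 0.0212), and Atr (adjusted p = 0.0513) and Bbc3 (0.0633) were not in K36M libraries. Pmaip1 in K36M libraries passed with quantile normalization (adjusted p = 0.0180) and with a mean TPM of at least 5 (0.0490). With array weights, 9730 and 8527 genes were called, with Trp53 in both genotypes and Pmaip1 in K36M libraries among them. Without a control FGO library, 2844 to 2877 genes were called in controls. Without K36M FGO replicate 1, 300 genes were called between K36M and control FGOs, none of them a member, in place of 1. Of the genes called between stages in controls, 50.3% were higher, and 38.6% with median-of-ratios scaling, which moved the median of all genes to -0.17.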
